A study of Sus scrofa with 40 samples.

Results

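The factors that start and extend protein chains on the cytosolic ribosome were followed in liver and backfat of pigs whose feed intake was cut for 8 days. Members were taken from the gene symbols of the array platform: every probe set with a single symbol beginning EIF1 to EIF6, EEF1 or EEF2, or equal to ETF1, was included. The rule gave 65 probe sets for 42 genes, out of 24123 probe sets on the array, and used no measured value. A probe set is a group of short probes whose signals are combined into 1 intensity for a transcript. Of the 42 genes, 26 had 1 probe set and 16 had several, and each probe set is described on its own because probe sets of a gene can read different parts of its transcripts. Those of a gene are called the first, the second and so on in the order of their p for the diet effect in fat. Another 2 probe sets carried the symbols EIF4EBP3 and ANKHD1 together and were left out. EEF1A2, EEF2, EEF2K, EIF2AK3, EIF4EBP1 and ETF1 were not analysed here.

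The 40 arrays came from prepubertal Yorkshire gilts, 6 months old, of lines with low or high residual feed intake (RFI), the part of feed intake that growth and body weight do not account for. A low RFI pig eats less than predicted and is the more feed-efficient. Within each line the gilts ate ad libitum or received 80% of maintenance feed for 8 days (restricted), which gave 4 groups of 5 arrays per tissue. The tissues were liver and backfat, the latter taken at the 10th rib from its middle layer. All groups were selected by the submitters to be heterozygous for a variant of MC4R, the melanocortin receptor that acts on appetite. For 1 liver array, replicate 2 of the low RFI ad libitum group, the label speaks of selected genotypes and does not give heterozygosity. Whether liver and fat arrays of the same number come from the same pig is not given in the labels, and p-values measure the spread between these arrays.

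Translation begins when eIF2 carries the initiator tRNA to the small ribosomal subunit, which eIF3 scaffolds and eIF1 and eIF1A hold open for scanning. The mRNA is brought in by the cap-binding protein eIF4E on the scaffold eIF4G, with the helicase eIF4A and its helpers eIF4B and eIF4H. Cells that sense low amino acids or insulin restrain this step in 2 well-known ways: 4E-binding proteins capture eIF4E when mTORC1 signalling is low, and stress kinases phosphorylate the alpha subunit of eIF2, which then blocks its exchange factor eIF2B. After the subunits join, eEF1A delivers each aminoacyl-tRNA, the eEF1B subunits recharge eEF1A with GTP, and eIF5A eases the ribosome through difficult stretches. Liver and adipose tissue both lower protein synthesis in a fast, largely by phosphorylation of such factors, which an RNA array does not read.

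The deposited values are linear intensities that were scaled to a common level: after trimming 2% at each end, the array means lay between 500.09 and 500.15, and the array medians between 127 and 191. All values below are intensities or differences of their log2, and levels are never set between probe sets. The labelled tissues carried their own markers: the mean log2 intensity of 12 hepatocyte markers was 14.6 to 15.2 on the liver arrays, and that of 6 adipocyte markers was 12.8 ± 0.305 (SD, n = 10) on the restricted fat arrays and between 12.4 and 13.2 on the ad libitum fat arrays, against 3.86 to 5.43 on the liver arrays. Skeletal muscle markers varied widely in backfat, from a mean of 5.27 to 12.8, and replicate 5 of the restricted low RFI fat group stood apart with a hepatocyte mean of 12.4, where the ad libitum fat arrays reached 6.96. An earlier account of these data had found the replicates 1 and 2 of each group to differ as a set from replicates 3 to 5. Whether they do was not tested again here, and values within each set are given with the diet results. A fall in a bulk tissue can mean fewer cells of a type or less RNA per cell, which cannot be told apart here.

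In backfat, restriction raised EIF4B, EIF3E, EIF3M, EIF3D, EIF2B4, EIF2A and EIF4EBP2 and lowered EIF5A, EIF2D, EIF4A1, EEF1G and EIF4G2. The largest rise was that of EIF4B, which stimulates the eIF4A helicase, at 0.57 ± 0.09 (SE) on the log2 scale or 1.49-fold. The largest fall was that of EIF5A, by 0.52 ± 0.19 (SE), at the edge of the threshold (limma, adjusted p = 0.0494). Its second probe set stood at -0.03. Of the 62 member probe sets tested in fat, 15 passed the test, 10 higher (7 genes) and 5 lower (5 genes). The test was limma on log2 intensity, with p-values adjusted by Benjamini-Hochberg over the 15498 probe sets tested in fat and a threshold of 0.05. The members' share of 24.2% lies near the 25.8% of all probe sets that passed, so the count is read against that background and not as a property of translation factors. Among all probe sets 15.1% passed higher and 10.7% passed lower. The members' median change was 0.09, beside 0.08 over all probe sets. On arrays quantile normalized in place of the authors' scaling, 14 members passed higher and 2 lower. Over all probe sets the split went from 2344 higher and 1655 lower to 1823 higher and 1906 lower. Without a filter on dim probe sets 10 members passed higher and 2 lower, with 15.5% of all probe sets passing. The falls thus held less often than the rises. None of the 5 falls passed on arrays numbered 1 and 2, on those numbered 3 to 5, or with control ratios of RNA quality as covariates.

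**Figure D1:**
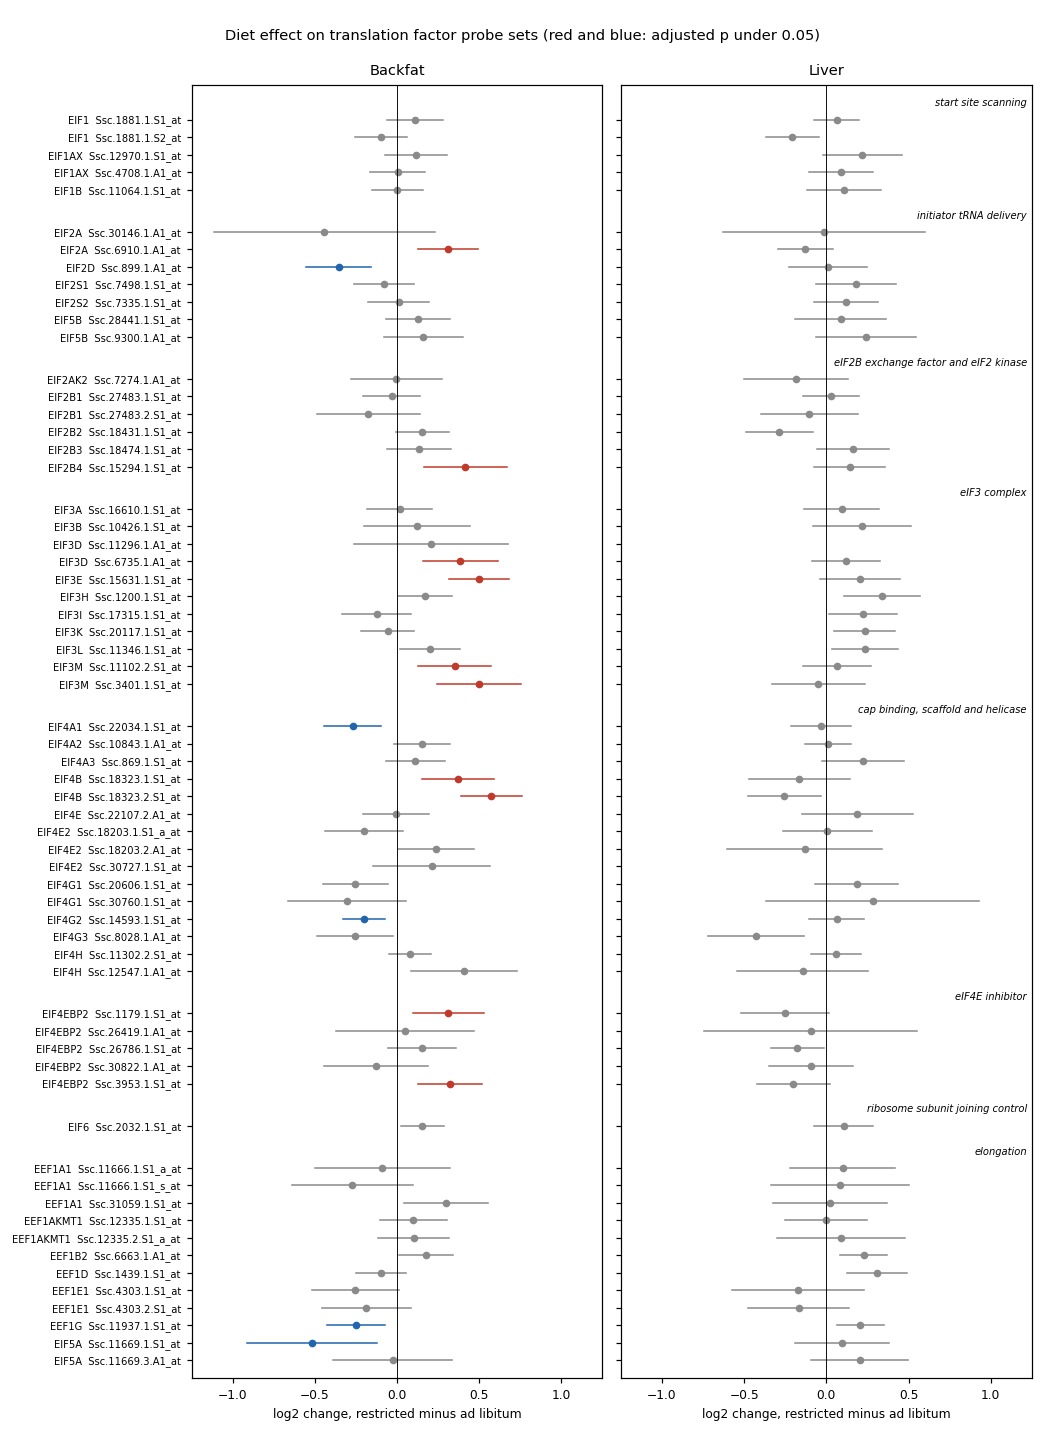
Change with restriction (restricted minus ad libitum, log2 scale, averaged over both lines) of each member probe set in backfat (left) and liver (right), grouped by role in translation. Points are limma estimates and bars their 95% intervals; red and blue points, 10 and 5 in backfat and 0 in liver, have an adjusted p under 0.05.

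EIF4B was measured by a pair of probe sets. On the first, the low RFI fat arrays read 5325, 5833, 6332, 6480 and 6716 when fed ad libitum and 6664, 8851, 9065, 9466 and 9912 when restricted. The high RFI arrays read 4615, 5530, 5604, 6476 and 6798 ad libitum and 7200, 8832, 9323, 9748 and 9910 restricted. Thus 9 of the 10 restricted arrays lay above every ad libitum array, and the exception was replicate 1 of the low RFI line at 6664. The adjusted p of the change was 0.000115, and the 95% interval ran from 0.39 to 0.76. The rise was 0.51 in the low RFI and 0.64 in the high RFI line, and both passed within their line. The second rose by 0.37 ± 0.10 (SE, adjusted p = 0.0123), with restricted arrays from 3118 to 5901 and ad libitum arrays from 2785 to 4288. Within the arrays numbered 1 and 2 the changes were 0.51 and 0.26, and within those numbered 3 to 5 they were 0.61 and 0.45.

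EIF3E, a subunit of the eIF3 scaffold, rose by 0.50 ± 0.09 (SE, adjusted p = 0.000313), or 1.41-fold. Its low RFI fat arrays read 6895, 7213, 7314, 7644 and 7847 ad libitum and 9028, 9723, 10424, 10480 and 12203 restricted. The high RFI arrays read 5672, 5956, 6935, 6946 and 7616 ad libitum and 7303, 8564, 9458, 9945 and 12530 restricted. In the low RFI line the diets did not overlap, and in the high RFI line the lowest restricted array fell inside the ad libitum range. The changes were 0.48 within the low RFI and 0.51 within the high RFI line, and both passed.

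EIF3M, another eIF3 subunit, rose on both of its probe sets, by 0.50 ± 0.12 (SE, adjusted p = 0.00541) on the first and 0.35 ± 0.11 (SE, adjusted p = 0.0198) on the second. On the first, the low RFI fat arrays read 835, 929, 952, 1155 and 1221 ad libitum and 1149, 1221, 1379, 1393 and 1775 restricted. The high RFI arrays read 676, 751, 969, 1143 and 1322 ad libitum and 1192, 1275, 1276, 1614 and 1631 restricted. All 10 restricted arrays lay above the ad libitum median of 961, but only 5 lay above the highest ad libitum array. For the second, 8 of 10 restricted arrays lay above every ad libitum array. EIF3D, the eIF3 subunit that can itself contact the mRNA cap, rose by 0.39 ± 0.11 (SE, adjusted p = 0.0127) on the first probe set, while the second, a dim one, stood at 0.21 and did not pass.

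The eIF3 complex as a group had 9 genes and 11 probe sets tested in fat. Of these, 4 probe sets (3 genes) passed higher and 0 lower, beside 15.1% and 10.7% of all probe sets. The median change was 0.20, beside 0.08 over all probe sets. Estimates were positive for 9 of the 11 and ran from -0.12 for EIF3I to 0.50. The share of positive estimates over all probe sets was not counted. EIF3H and EIF3L, at 0.17 and 0.20, did not pass under the authors' scaling and passed after quantile normalization at 0.33 and 0.26. In that fit 5 eIF3 genes passed and the median was 0.26, while 24.1% of all probe sets passed. EIF3A, EIF3B and EIF3K had changes of 0.02, 0.12 and -0.06.

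Among the cap-binding, scaffold and helicase factors (10 genes, 15 probe sets), both EIF4B probe sets rose and EIF4A1 and EIF4G2 fell. EIF4A1, the helicase that unwinds the 5' end of mRNAs, fell by 0.27 ± 0.08 (SE, adjusted p = 0.0215), from an ad libitum median of 2489 (range 2101 to 3137) to 2035 (1754 to 2669). EIF4G2, a scaffold relative that lacks the eIF4E-binding part, fell by 0.20 ± 0.06 (SE, adjusted p = 0.0219). Its restricted arrays read 9836 to 13014 with a median of 11384, its ad libitum arrays 11955 to 14117, and 7 of 10 restricted arrays lay below every ad libitum array. After quantile normalization the EIF4G2 change was -0.10 with an adjusted p of 0.229. EIF4G1, the main scaffold, had changes of -0.25 (adjusted p = 0.0527) and -0.30 (adjusted p = 0.208) on its probe sets. With the stricter filter on dim probe sets the first EIF4G1 probe set passed, at -0.25 (adjusted p = 0.044), and so did the first of EIF4H (adjusted p = 0.0493). EIF4E, the cap-binding protein, stood at -0.01 with a 95% interval from -0.21 to 0.19, and EIF4A2, the second helicase, at 0.15 (adjusted p = 0.182).

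EIF4EBP2, the only 4E-binding protein among the members, had 5 probe sets. The first rose by 0.32 ± 0.09 (SE, adjusted p = 0.014), from 3651 to 5289 ad libitum (median 4379) to 4229 to 7388 restricted (median 5644). The second rose by 0.31 ± 0.10 (SE, adjusted p = 0.0303). The other probe sets had changes of 0.15, 0.05 and -0.13, and none of these passed. The probe sets that passed were also the ones with the highest fat to liver difference of this gene.

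The factors that handle the initiator tRNA split in direction. EIF2D, which can load initiator tRNA without eIF2, fell by 0.35 ± 0.10 (SE, adjusted p = 0.00968). Its low RFI fat arrays read 332, 382, 435, 437 and 478 ad libitum and 269, 320, 325, 340 and 357 restricted, and its high RFI arrays 327, 398, 420, 431 and 470 ad libitum and 270, 293, 306, 336 and 396 restricted. All 10 restricted arrays lay below the ad libitum median of 425, and 6 lay below every ad libitum array. EIF2A, another alternative carrier of the initiator tRNA, rose by 0.31 ± 0.09 (SE, adjusted p = 0.0127) on the first probe set, where 8 of 10 restricted arrays lay above all ad libitum arrays. Its other probe set stood at -0.44 with a 95% interval that crossed 0 and did not pass, so the probe sets of EIF2A disagree. EIF2S1, the eIF2 alpha subunit that stress kinases phosphorylate, stood at -0.08 (95% interval -0.26 to 0.11).

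Of the eIF2B exchange factor and the kinase EIF2AK2 (5 genes, 6 probe sets), EIF2B4 passed. EIF2B4, the delta subunit of eIF2B, rose by 0.42 ± 0.12 (SE, adjusted p = 0.0144), from 586 to 962 ad libitum (median 689) to 714 to 1294 restricted (median 969). All 10 restricted arrays lay above the ad libitum median and 5 lay above the highest ad libitum array. EIF6, which keeps the large subunit from joining too early, stood at 0.16 (adjusted p = 0.0717) under the authors' scaling and passed after quantile normalization at 0.17. None of the 5 probe sets for the scanning factors EIF1, EIF1B and EIF1AX passed, with changes from -0.10 to 0.12.

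The elongation group (7 genes, 12 probe sets, EEF1E1 and EEF1AKMT1 among them) had a median change of -0.09. Of its probe sets 2 passed, both lower, beside 10.7% of all probe sets that passed lower. Both calls were lost in some fits with 1 array left out. EEF1G, the gamma subunit of eEF1B, fell by 0.25 ± 0.09 (SE, adjusted p = 0.0354). EIF5A fell by 0.52 ± 0.19 (SE, adjusted p = 0.0494) on the first probe set, where restricted arrays read 786 to 2811 (median 1709) and ad libitum arrays 1512 to 3691 (median 2439). The second EIF5A probe set stood at -0.03 (95% interval -0.39 to 0.33). EEF1A1, the tRNA-delivering factor and one of the most abundant mRNAs of any cell, had changes of -0.27, -0.09 and 0.30 on its gene probe sets, and none passed. The array's ef1a control probe set for EEF1A1, which was left out of the tests, stood at 0.10 ± 0.08 (SE), with an adjusted p of 0.372 when it was kept in the fit. After quantile normalization neither EIF5A nor EEF1G passed, and EEF1B2, the exchange subunit, passed higher at 0.15. EEF1E1 and EEF1AKMT1 are members by symbol only: the first belongs to the tRNA synthetase complex and the second is a methyltransferase of eEF1A, and neither passed.

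**Figure D2:**
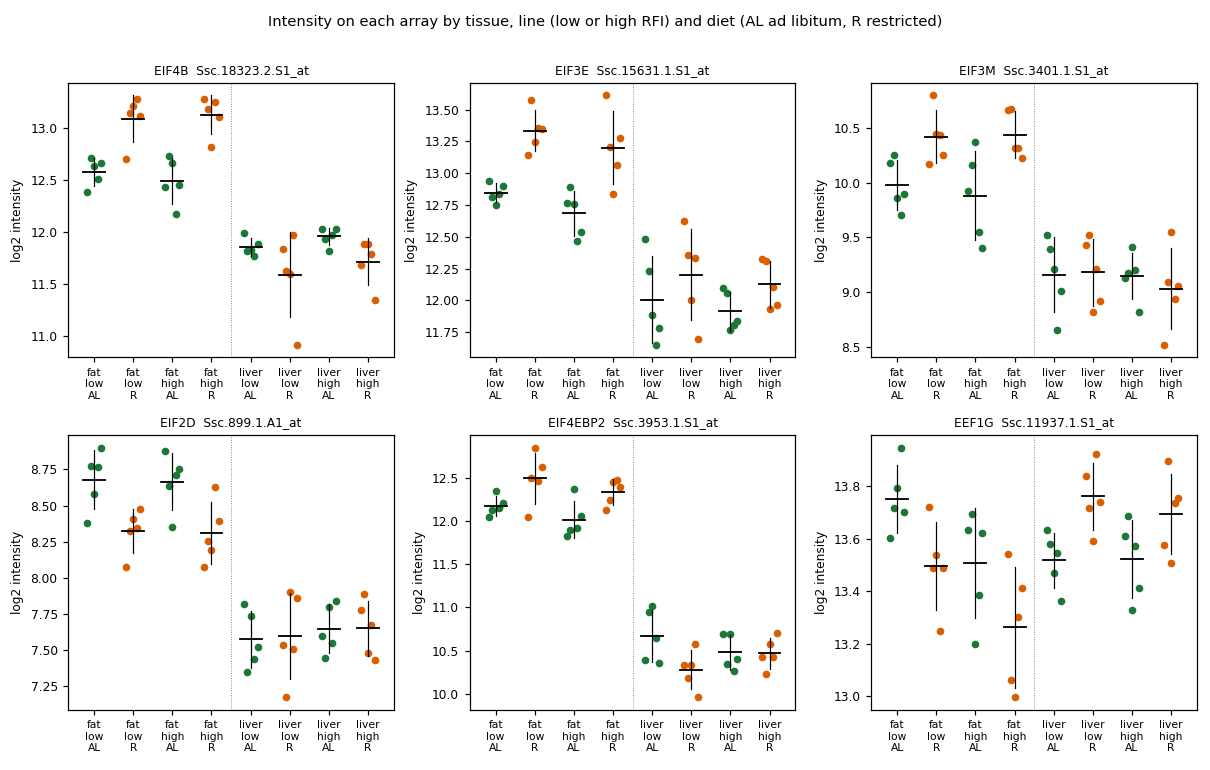
Log2 intensity of 6 member probe sets on each array, by tissue (fat or liver), line (low or high RFI) and diet (AL ad libitum, green; R restricted, orange). Points are single arrays, 5 per group, horizontal lines are group means and vertical lines 1 SD. Restricted fat arrays sit higher for EIF4B, EIF3E, EIF3M and EIF4EBP2 and lower for EIF2D, while the EEF1G groups overlap more.

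The diets did not separate fully for any member: 0 of 62 probe sets in fat had all 10 restricted arrays on one side of all 10 ad libitum arrays, beside 1.66% of all probe sets. All 15 changes had the same sign in both lines, but they were picked by the average over both lines, which favours such agreement. Within the low RFI line, 2 of 62 members passed (EIF4B and EIF3E), beside 9.2% of all probe sets. Within the high RFI line 5 probe sets passed (EIF4B and EIF3M on both probe sets, and EIF3E), beside 9.02% of all. The difference of the diet effect between lines passed for no member, at a share of 0% of all probe sets in fat and 0% in liver. At an unadjusted p under 0.05, limma gave 0 members for that difference in either tissue, beside 1.57% of all probe sets in fat and 3.35% in liver.

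One control ratio of RNA quality differed with diet in backfat before adjustment, and did not pass 0.05 after it. The log2 ratio of the 3' to the 5' GAPDH control was 1.88 ± 0.521 (SD, n = 10) on restricted and 1.19 ± 0.365 (SD, n = 10) on ad libitum fat arrays, with an exact permutation p of 0.00441 (two-sided, 0.0529 adjusted over 12 such tests). Further GAPDH control probe sets gave ratios that differed by 0.11 and -0.03 in fat (exact permutation p of 0.0907 and 0.858). The same ratio of the ef1a control, a transcript of the members' own EEF1A1 family, differed by -0.0051 in fat and 0.0039 in liver, and that of actin by 0.10 in fat. When the GAPDH ratio given first and this actin ratio entered the fit, 2 of 62 members passed in fat, beside 11.9% of all probe sets: EIF4B at 0.53 (adjusted p = 0.0077) and EIF3E at 0.44 (adjusted p = 0.0096). The other 13 kept their sign, and EIF4EBP2 moved the most among those higher, from 0.32 to 0.14 and from 0.31 to 0.14.

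Cell type markers were summed as the mean log2 intensity of each list. The fibroblast marker mean (4 of 6 measured) was lower on restricted arrays in both tissues, by 0.42 in fat and 0.48 in liver on the log2 scale (exact permutation p of 0.00665 and 0.00176, adjusted over 14 tests to 0.0465 and 0.0247). By gene, 3 estimates were negative and 1 positive in fat, from -1.13 to 0.16, and all 4 were negative in liver. In fat the fibroblast mean ran from 11.2 to 12.4 restricted and from 11.8 to 12.4 ad libitum. The part of these markers in the members' changes was not tested. Adipocyte markers differed by -0.18 between diets in fat (exact permutation p = 0.119) and hepatocyte markers by 1.04 (p = 0.144), from 5.49 to 12.4 restricted and 4.76 to 6.96 ad libitum. That hepatocyte difference was 0.56 without the arrays numbered 5 and 1.44 without those numbered 4. The skeletal muscle marker mean differed by 0.40 between diets in fat (exact permutation p = 0.73), so as a covariate it could take up little of the diet effect. With it in the fit 14 of the 15 members passed in fat, all but EIF5A, beside 25.5% of all probe sets. Without the restricted low RFI fat array numbered 5, which held the liver signal, 13 members passed, 9 higher and 4 lower, beside 23.8% of all probe sets. The second EIF4EBP2 probe set and EEF1G were no longer among the 13.

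Arrays numbered 1 and 2 (2 per group) gave 0 member calls for diet in fat, where 3.03% of all probe sets passed. Arrays numbered 3 to 5, where 18.8% of all passed, gave 9, 8 higher and 1 lower, among them the first EIF4H probe set at 0.54 and EIF4G3 at -0.38, which had not passed on all arrays. All 15 estimates had the same sign in both sets, which their selection on all fat arrays together favours. The lowest changes among the members that rose were 0.22 (the second EIF4EBP2 probe set) in the first set and 0.32 (EIF2A) in the second. EIF2D stood at -0.48 in the first and -0.27 in the second. When each fat array was left out in turn, 12 of the 15 passed every time. EIF5A passed in 6 of 20 such fits, the second EIF4EBP2 probe set in 10 and EEF1G in 11, so these 3 calls depended on single arrays. EIF5A passed only without replicate 1 of the restricted high RFI group, replicate 3 of the ad libitum high RFI group, replicate 1 or 2 of the ad libitum low RFI group, or replicate 1 or 5 of the restricted low RFI group. The second EIF4EBP2 probe set was lost without replicate 2 or 5 of either ad libitum group, replicate 2, 4 or 5 of the restricted high RFI group, or replicate 3, 4 or 5 of the restricted low RFI group. EEF1G was lost without replicate 1, 2 or 5 of the ad libitum high RFI group, replicate 2 or 3 of the restricted high RFI group, replicate 3 or 4 of the ad libitum low RFI group, or replicate 4 or 5 of the restricted low RFI group.

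**Figure D3:**
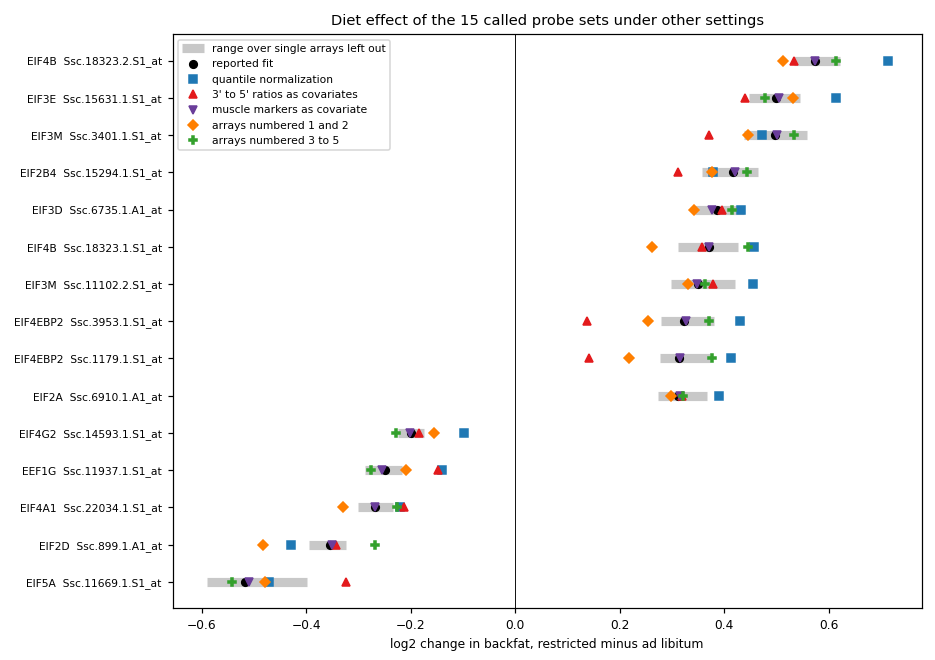
Diet effect in backfat (log2 scale) of the 15 probe sets that passed, under the reported fit (black circles), other settings (coloured symbols) and each array left out in turn (grey bars, lowest to highest). All symbols keep the side of 0 of the reported fit, which the selection of the 15 by that fit favours. EIF4B lies highest in the reported fit at 0.57, and the EIF4EBP2 probe sets move to 0.14 with the 3' to 5' ratios as covariates.

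In liver, no member passed for diet: 0 of 60 probe sets, beside 0.919% of all. At an unadjusted p under 0.05 limma gave 12 of 60, beside 12.4% of all probe sets. Other settings gave 5 (with the control ratios as covariates, where 2.45% of all probe sets passed) and 2 (without the restricted low RFI liver array numbered 5, where 0.931% of all passed). The 5 were EIF3H, EIF3I, EIF3K and EEF1G at 0.37, 0.36, 0.34 and 0.27, and EIF4G3 at -0.54. The members' median was 0.07, beside 0.02 over all probe sets, with 39 positive and 21 negative estimates. The eIF3 group had a median of 0.21, with 9 of 10 probe sets positive, and all 5 EIF4EBP2 probe sets were negative, from -0.25 to -0.09. None of these estimates passed, and after quantile normalization the medians were 0.21 and -0.18.

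The smallest p-values in liver belonged to the exchange subunits of eEF1B. EEF1D, the delta subunit, stood at 0.31 ± 0.09 (SE, adjusted p = 0.102). Its low RFI liver arrays read 2340, 2551, 2902, 3093 and 3196 ad libitum and 3131, 3609, 3765, 3978 and 4540 restricted, and its high RFI arrays 2955, 3210, 3214, 3342 and 3456 ad libitum and 3052, 3377, 3545, 4083 and 4464 restricted. Of the 10 restricted arrays, 7 lay above every ad libitum array. EEF1B2 stood at 0.23 ± 0.07 (SE, adjusted p = 0.133). Its low RFI liver arrays read 15286, 16253, 16453, 16928 and 16983 ad libitum and 15321, 18439, 19430, 19713 and 23190 restricted, and its high RFI arrays 14253, 17052, 17055, 17685 and 18711 ad libitum and 18512, 19598, 19660, 19706 and 22016 restricted. For EEF1B2, too, 7 restricted arrays lay above all ad libitum arrays, and the diets overlapped through 3 restricted arrays, at 15321 and 18439 in the low RFI and 18512 in the high RFI line, which lay below the highest ad libitum array at 18711.

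EIF4G3, the second large scaffold of the cap complex, stood at -0.43 ± 0.14 (SE, adjusted p = 0.165) in liver. Its low RFI arrays read 694, 745, 853, 950 and 1055 ad libitum and 337, 440, 605, 700 and 714 restricted, and its high RFI arrays 497, 650, 657, 762 and 884 ad libitum and 449, 597, 625, 650 and 655 restricted. All 10 restricted arrays lay below the ad libitum median of 754. EIF3H stood at 0.34 ± 0.11 (SE, adjusted p = 0.169). Its low RFI arrays read 4349, 4448, 4528, 5292 and 5497 ad libitum and 3883, 4797, 6655, 7575 and 7889 restricted, and its high RFI arrays 4297, 5012, 5107, 5142 and 5655 ad libitum and 5769, 6068, 6364, 6980 and 7343 restricted. In the high RFI line the EIF3H diets did not overlap, and in the low RFI line 1 restricted array was the lowest of all.

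The diet effect differed between the tissues for 8 of 60 member probe sets (13.3%), beside 10.9% of all probe sets tested in both. Of these, 6 were higher in fat relative to liver (4.53% of all) and 2 lower (6.36% of all). The first EIF4B probe set had the largest difference, 0.83 ± 0.14 (SE, adjusted p = 9.3e-05): it rose in fat, and its liver change was -0.26 (adjusted p = 0.307). Its low RFI liver arrays read 3487, 3600, 3618, 3782 and 4074 ad libitum and 1929, 3088, 3157, 3652 and 4018 restricted, and its high RFI arrays 3613, 3910, 4014, 4167 and 4172 ad libitum and 2590, 3290, 3519, 3762 and 3768 restricted. Of the 10 restricted liver arrays, 5 lay below every ad libitum array.

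EEF1G differed in the other direction, by -0.46 ± 0.11 (SE, adjusted p = 0.00354), with a fall in fat and a liver change of 0.21 (adjusted p = 0.172). Its low RFI liver arrays read 10531, 11356, 11955, 12237 and 12696 ad libitum and 12331, 13455, 13671, 14655 and 15536 restricted, and its high RFI arrays 10291, 10909, 12191, 12516 and 13176 ad libitum and 11659, 12220, 13652, 13815 and 15234 restricted. In liver 7 of the 10 restricted arrays lay above every ad libitum array, and in fat 2 of 10 lay below every ad libitum array. EEF1D, its partner in eEF1B, differed by -0.40 ± 0.11 (SE, adjusted p = 0.0128), and after quantile normalization by -0.23 with an adjusted p of 0.132.

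The remaining differences were positive. EIF4EBP2 differed by 0.52 ± 0.14 (SE, adjusted p = 0.0112) and 0.56 ± 0.17 (SE, adjusted p = 0.0227) on the probe sets that rose in fat, EIF2A by 0.44 ± 0.12 (SE, adjusted p = 0.0102) and EIF2B2, the beta subunit of eIF2B, by 0.44 ± 0.12 (SE, adjusted p = 0.0135). EIF2B2 had a fat change of 0.15 and a liver change of -0.29, neither of which passed, and all 10 restricted liver arrays lay below its ad libitum median. The first EIF3M probe set differed by 0.55 ± 0.19 (SE, adjusted p = 0.0499), at the edge of the threshold. Arrays numbered 1 and 2 alone gave 0 such calls (1.81% of all probe sets) and arrays numbered 3 to 5 gave 4 (5.06% of all). Leaving out 1 replicate number at a time gave 4 to 9: 4 without number 2, 5 without number 4 and 4 without number 5. EIF4B and EEF1G passed in all 5 of these fits, the first EIF4EBP2 probe set in 4, EIF2A, EIF2B2 and EEF1D in 3, the second EIF4EBP2 probe set in 1 and EIF3M in 0.

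**Figure D4:**
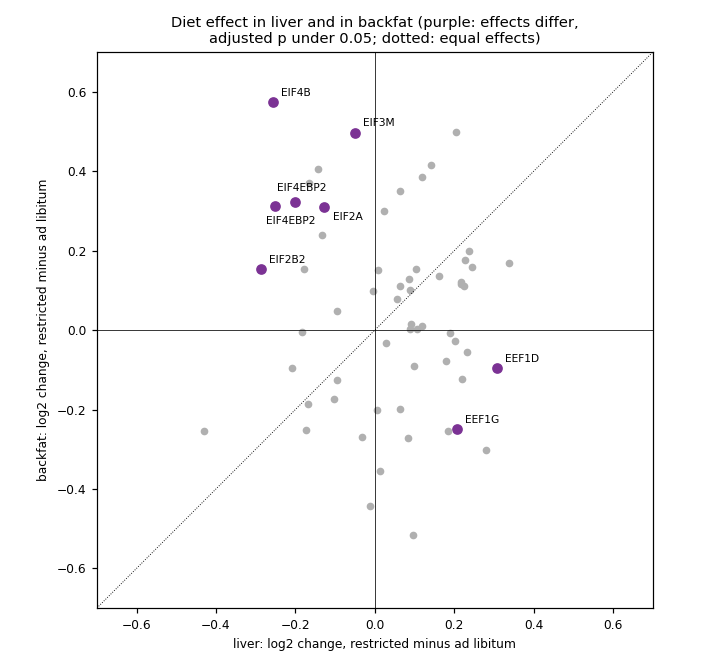
Diet effect of the 60 member probe sets tested in both tissues, in liver (x axis) and backfat (y axis), both as log2 restricted minus ad libitum. Purple points with a symbol are the 8 whose effects differed between tissues; 6 lie above the dotted line of equal effects and 2, EEF1G and EEF1D, below it.

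No member passed for the difference between lines: 0 of 62 probe sets in fat, beside 0.0194% of all, and 0 of 60 in liver, beside 0.0447% of all. At an unadjusted p under 0.05 limma gave 4 in fat, beside 7.78% of all probe sets, and 0 in liver, beside 6.53% of all. EEF1G had the smallest p in fat, at 0.24 ± 0.09 (SE, low minus high RFI, adjusted p = 0.444). Its low RFI fat arrays read 12440, 13306, 13464, 14175 and 15779 ad libitum and 9733, 11481, 11482, 11888 and 13506 restricted, and its high RFI arrays 9417, 10706, 12617, 12709 and 13262 ad libitum and 8175, 8543, 10089, 10911 and 11925 restricted. Lines and diets thus overlapped for EEF1G, with the highest arrays in the low RFI ad libitum group and the lowest in the high RFI restricted group. EIF3L, an eIF3 subunit, stood at 0.22 ± 0.09 (SE, adjusted p = 0.535). Its low RFI fat arrays read 2706, 2910, 2997, 3243 and 3440 ad libitum and 3220, 3320, 3407, 3409 and 3587 restricted, and its high RFI arrays 2361, 2478, 2491, 2589 and 2791 ad libitum and 2107, 2918, 2981, 3583 and 3752 restricted. The high RFI restricted arrays of EIF3L spanned the range of all the other groups. For skeletal muscle markers in backfat no line difference passed, at 0 of 10 genes. Their low minus high RFI estimates were all positive, from 0.78 to 2.88 with a median of 2.20 on the log2 scale. Their mean log2 intensity was 9.94 ± 2.97 (SD, n = 10) on the low RFI fat arrays (5.27 to 12.8) and 7.89 ± 1.98 (SD, n = 10) on the high RFI fat arrays (5.48 to 11.1). These ranges overlap, and the line difference of the mean was not tested. With that mean as a covariate the line difference was 0.15 for EIF3L (adjusted p = 0.914) and 0.22 for EEF1G (adjusted p = 0.813).

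In liver, EIF2B4 stood at -0.21 ± 0.10 (SE, low minus high RFI, adjusted p = 0.788). Its low RFI arrays read 427, 550, 627, 685 and 723 ad libitum and 607, 635, 640, 651 and 808 restricted, and its high RFI arrays 588, 642, 698, 715 and 862 ad libitum and 688, 691, 712, 807 and 896 restricted. EIF4E2, a cap-binding relative of eIF4E linked to repression, stood at -0.40 ± 0.23 (SE, adjusted p = 0.827) on the first probe set. Its low RFI liver arrays read 39.3, 154, 168, 172 and 241 ad libitum and 97.2, 129, 131, 144 and 148 restricted, and its high RFI arrays 171, 174, 182, 195 and 211 ad libitum and 141, 142, 151, 162 and 220 restricted. Without the array that read 39.3, replicate 1 of the low RFI ad libitum group, the EIF4E2 difference was -0.18. It was -0.95 within the arrays numbered 1 and 2 and -0.04 within those numbered 3 to 5, and the lines overlapped for both genes.

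The tissues themselves differed for most members: 51 of 60 probe sets (85.0%) passed, beside 78.8% of all probe sets. In fat 39 were higher (51.4% of all) and 12 lower (27.4% of all). The members' median difference, fat minus liver, was 0.30, beside 0.25 over all probe sets. Quantile normalization moved the median of all probe sets to 0.09, and 31 of 60 members lay above the median of all probe sets under the authors' scaling. Under quantile normalization 42 of the 51 kept sign and call (33 higher, 9 lower), and 4 changed sign: the second EIF4H and the second EIF4E2 probe set, EEF1G and EIF3K.

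EIF4EBP2 had the largest tissue difference, 1.79 ± 0.07 (SE, adjusted p = 5.98e-24) on the first probe set, or 3.45-fold higher in fat. That probe set read 3651 to 7388 (median 4793) on the 20 fat arrays and 996 to 2066 (median 1359) on the 20 liver arrays. The second was higher by 1.46, the third by 0.24, and the fourth was lower, at -0.60, so the probe sets of EIF4EBP2 disagree. For 8 member probe sets every fat array lay above every liver array, and for 0 the reverse held. The 8 were EIF4EBP2 (2 probe sets), EEF1D, EIF2D, the first probe sets of EIF1AX, EIF4B and EIF5B, and the second of EIF1. The share of all probe sets that separated the tissues in this way was not counted. The 8 and 0 are therefore not read as a property of translation factors. EEF1D read 5174 to 8313 in fat and 2340 to 4540 in liver, a difference of 0.99. EIF1, the guardian of start codon choice, read 4850 to 7820 and 2932 to 4308 on the second probe set, a difference of 0.99, while the first differed by 0.01. EIF2D read 269 to 478 in fat and 144 to 239 in liver, a difference of 0.88.

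Further members among the 16 with the smallest p were higher in fat under both scalings. They were EIF4B at 1.04, EIF3M at 1.05, the first EIF4H probe set at 1.37, EIF3E at 0.95, EIF4G3 at 0.91, EIF1AX at 0.83, EIF2B2 and EIF5B at 0.80, EIF3H at 0.69 and EIF2S2, the eIF2 beta subunit, at 0.64. EIF4G1 went the other way, at -0.91 ± 0.08 (SE, adjusted p = 1.25e-13) and -0.52 on its probe sets, with 1048 to 2063 in fat and 1818 to 4725 in liver on the first. EEF1A1 probe sets disagreed between tissues at -1.03, -0.79 and 0.94, so no direction is given for that gene. Its bright control probe set read 23561 to 37369 in fat and 24775 to 42636 in liver, which overlap over most of their length. When the control was kept in the fit the difference was -0.14 and passed (adjusted p = 0.0229). The array's other ef1a controls stood at -0.16 (adjusted p = 0.00882) and -0.08 (adjusted p = 0.24).

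**Figure D5:**
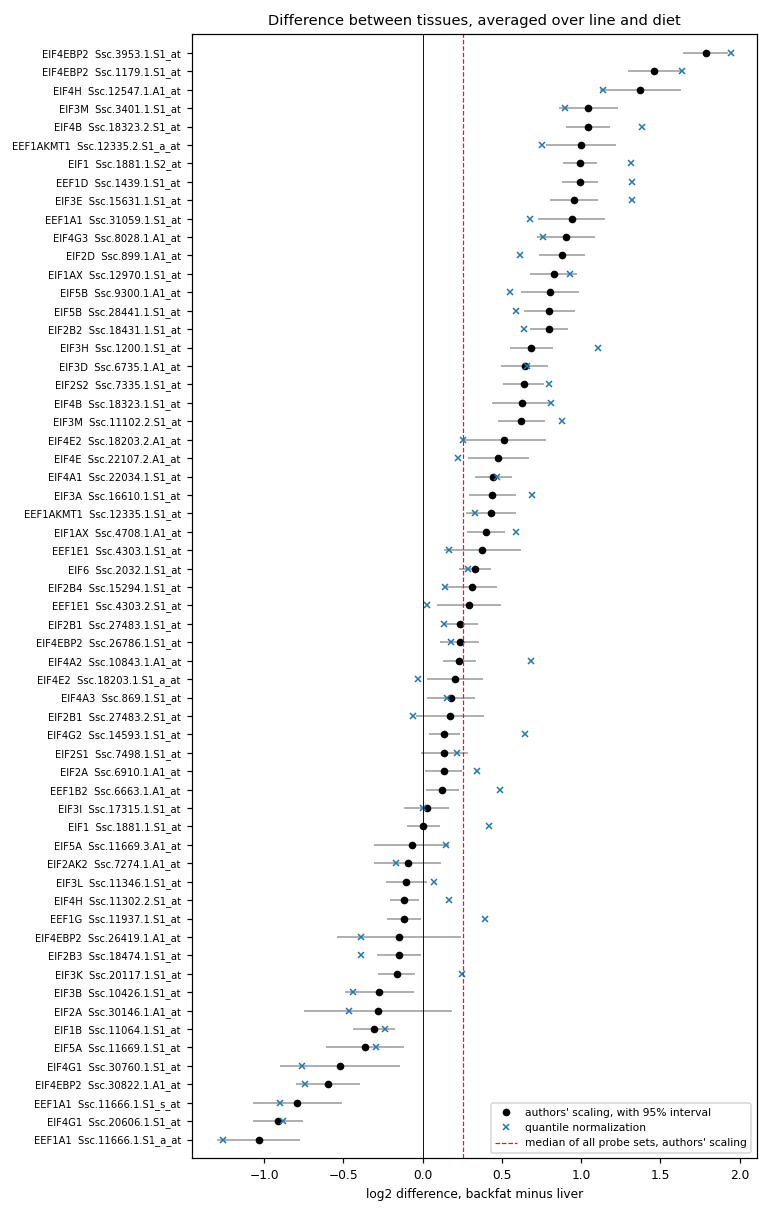
Difference between tissues (backfat minus liver, log2 scale, averaged over line and diet) of the 60 member probe sets, under the authors' scaling (black points with 95% intervals) and after quantile normalization (blue crosses). The dashed line marks the median of all probe sets at 0.25; EIF4EBP2 lies highest at 1.79 and an EEF1A1 probe set lowest at -1.03.

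Other parts of the translation machinery give the setting. In fat, 5 of 63 cytosolic ribosomal protein genes passed higher and 2 lower for diet, with a median change of 0.10, and RPL36AL (0.42) and RPL5 (0.25) had the smallest p. By probe set 8.9% passed, beside 25.8% of all. The others, named after their values were seen, were RPL32, RPL34 and RPS27 higher and RPL35 and RPS25 lower. In liver 7 of 61 passed higher and 0 lower, and 60 of 61 estimates were positive with a median of 0.22, led by RPS12 at 0.33 and RPLP2 at 0.49. By probe set 7.7% passed in liver, beside 0.919% of all. After quantile normalization 11 genes passed higher and 5 lower in fat, and in liver 10 passed higher and the median was 0.14. Of 17 genes of cytosolic tRNA synthetases and their complex 1 passed higher in each tissue, AIMP1, a scaffold of the complex, at 0.34 in fat and FARSA, a subunit of the phenylalanine enzyme, at 0.66 in liver. By probe set 7.1% of this list passed in fat and 3.4% in liver, beside 25.8% and 0.919% of all. RARS, the arginine enzyme, stood at 0.23 (adjusted p = 0.052) in fat and FARSB, the partner of FARSA, at 0.38 in liver. All 17 liver estimates were positive, with a median of 0.18.

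Of 13 mTORC1 and integrated stress response genes tested in fat, 1 passed higher and 2 lower, or 18.8% of their probe sets beside 25.8% of all. ASNS, the asparagine synthetase that the stress factor ATF4 induces, fell by 0.44 (adjusted p = 0.00579), and IMPACT, an inhibitor of the amino acid sensor kinase GCN2, rose by 0.28 (adjusted p = 0.0155). GCN1, the partner that activates GCN2, fell by 0.26 (adjusted p = 0.0245) and is named after its value was seen. In liver 1 of 13 passed, or 5.9% of their probe sets beside 0.919% of all: MKNK1, a kinase that phosphorylates eIF4E, fell by 0.71 (adjusted p = 0.00757), while RPS6 stood at 0.22. Of 5 release and cap-binding partners in fat, YBX1 and PAIP1, both RNA-bound partners of the cap complex, fell by 0.26 and 0.20, and in liver none passed, with TPT1 at 0.17 and PABPC1 at 0.12. By probe set 40% of these partners passed in fat, beside 25.8% of all. Mitochondrial translation factors had 2 of 7 genes lower in fat, the elongation factor TUFM by 0.43 and its exchange factor TSFM by 0.56, and none in liver, where TUFM stood at -0.26 and MTRF1 at -0.24. By probe set 28.6% of the mitochondrial factors passed in fat, near the 25.8% of all.

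3 member probe sets were tested in neither tissue. EIF1AY read at most 52.1 on any array and a dim EIF5B probe set at most 73.4, both below the filter on dim probe sets, and the third was the ef1a control. A further pair, the second of EIF3D and the third of EIF4E2, passed that filter in fat only.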

How the data were processed

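Total RNA of 20 liver and 20 backfat samples was labelled with biotin and hybridised to 1-colour Affymetrix porcine arrays, per the labels. The authors deposited a linear intensity for each probe set, and the submitters' processing notes name affy and MAS5 without version or role. Probe sets were named from the platform's annotation: 10069 had 1 symbol, 198 several and 13732 none, with 124 control probe sets left out of the tests. The log2 of each intensity was fitted per tissue with limma 3.58.1 (R 4.3.3) as 4 group means with an intensity trend, over probe sets above the array's 40th percentile on at least 5 arrays of the tissue. Comparisons between tissues used all 40 arrays and the 14001 probe sets tested in both. Benjamini-Hochberg adjustment covered every tested probe set (threshold 0.05), and the procedure was checked on simulated data. Differences of control ratios and marker means between diets were tested by exact permutation within line. The number of arrays limits precision. Scaling to a common mean assumes similar total signal in all samples.

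The members, the gene lists and the alternatives were chosen with earlier results of these data known. Named are all members that passed where at most 30 genes did, otherwise the 16 with the smallest p, a fixed set of genes named whatever their p, and the 2 of smallest p in each other gene list. Each array's value is given for the 4 genes of smallest p for diet in each tissue and 2 for line and for the tissue difference. Alternatives were quantile normalization, other filters, an offset, no trend, the replicate block, left-out arrays, subsets of replicate numbers, and covariates. Keeping the ef1a controls in the fit was chosen after seeing the data. Sequences and genome positions were not used here.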

Additional observations from a re-analysis of the deposited data

Results flagged for a closer look

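In 96 groups of 5 arrays that were checked for the 12 probe sets described array by array, 5 held a reading far from the other 4, and chance sets apart about 1 in 20 groups. EIF2B4 read 808 on replicate 4 of the restricted low RFI liver group, where the others lay between 607 and 651. The first EIF4E2 probe set read 124 on replicate 2 of the ad libitum high RFI fat group (others 175 to 194) and 39.3 on replicate 1 of the ad libitum low RFI liver group (others 154 to 241). The first EIF4B probe set read 6664 on replicate 1 of the restricted low RFI fat group (others 8851 to 9912). EIF4G3 read 449 on replicate 4 of the restricted high RFI liver group (others 597 to 655).

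A test of the difference itself set the diet effect in fat apart from that in liver for 8 probe sets (limma, Benjamini-Hochberg adjusted). The differences, fat minus liver on the log2 scale, were 0.83 for EIF4B, 0.56 and 0.52 for EIF4EBP2, 0.55 for EIF3M, 0.44 for EIF2A and for EIF2B2, -0.40 for EEF1D and -0.46 for EEF1G.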

How the results depend on the processing

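Apart from the 4 tissue differences whose sign turned after quantile normalization (EIF4H, EIF4E2, EEF1G and EIF3K, 1 probe set each), no reported call changed direction under the alternatives run. For diet in fat, the 15 calls became 0 on arrays numbered 1 and 2, 9 on arrays numbered 3 to 5 and 2 with the 3' to 5' ratios as covariates. Of all probe sets 3.03%, 18.8% and 11.9% passed in these fits. Quantile normalization gave 16, no filter 12, the stricter filter 17, the offset 15, no intensity trend 13, and single arrays left out 12 to 17. The shares of all probe sets passing were 24.1%, 15.5%, 32.7%, 26.1% and 25.4%, and 22.1% to 29.3% with single arrays left out. Calls lower with restriction went from 5 to 3 without replicate 1, 2 or 5 of the ad libitum high RFI group, replicate 2 of the restricted high RFI group, replicate 3 of the ad libitum low RFI group or replicate 4 of the restricted low RFI group. For diet in liver, the ratios as covariates gave 5 calls (2.45% of all probe sets passed) and single arrays left out 0 to 2 (0.357% to 1.29% of all). For the difference of the diet effect between tissues, 8 calls became 0 on arrays numbered 1 and 2, 4 on those numbered 3 to 5, and 4 to 9 with 1 number left out. Of all probe sets 1.81%, 5.06%, and 5.42% to 9.65% passed in these fits. For fat minus liver, 51 calls became 41 to 49 with 1 number left out (75.4% to 77% of all) and 43 on either subset (69.9% and 74.3% of all). The diet difference of the marker means in fat with 1 number left out ran from 0.17 to 0.41 for endothelial and from -0.40 to -0.11 for red blood cell markers. With the replicate block, diet in fat gave 19 calls (11 higher and 8 lower, with 32.3% of all probe sets passing), which added EIF4G1 (adjusted p = 0.037), EIF4G3 (-0.26, 0.0304), the second EIF4E2 (-0.20, 0.0461) and the first EIF4H probe set (0.41, 0.0498). Diet in liver gave 1, EIF3H, where 2.09% of all passed, and the tissue difference of diet 15 (8 higher and 7 lower, 15.2% of all). Deviations from group means of same-numbered arrays correlated by 0.19 on average in fat (0.02 to 0.39, 23 of 30 pairs over 0.1) and 0.18 in liver (26 of 30). For other numbers the averages were -0.05 and -0.04. Deviations sum to 0 within a group, so positive values for the same number force these to be negative, and they add no separate evidence. Of the arrays, 12 of 20 in fat and 13 of 20 in liver were closest to their own number. This is a hint from the data that arrays of a number share variation; the labels state no pairing and not every pair was over 0.1, so the fit without the block is the one reported. The cause of these changes was not tested. Of 1171 comparisons of named values that passed in neither setting, 50 had another sign.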
